A study of Homo sapiens with 24 samples.

Results

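The expression of 42 genes that cells switch on in response to interferon was followed across the study. The set holds 3 sensors of viral RNA, 4 signalling and transcription factors, and antiviral proteins under their control. The genes were chosen by name, from a list of interferon-induced symbols, with earlier results of these data known. Each of the 42 matched exactly 1 gene of the 37247 in the deposited tables. Of these, 40 had enough counts to be tested, among 14986 genes in all, and RSAD2 and CMPK2 did not.

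Interferons are secreted proteins that bind receptors on the cell surface, where the kinases JAK1 and TYK2 pass the signal on. STAT2 and IRF9 then take part in a complex that binds a DNA motif, the interferon-stimulated response element (ISRE), in front of antiviral genes. Viral RNA in the cytosol is detected by RIG-I (RIGI) and MDA5 (IFIH1), which lead to interferon production, and IRF1, IRF3 and IRF7 also bind ISRE-like motifs. Many of these genes are also transcribed at a basal level in cells that are not infected.

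The cells were MDA-MB-231, a mesenchymal line derived from human breast cancer. The 4 engineered lines were a line overexpressing wild-type MRTF-A (WT), 2 lines overexpressing mutants named dSAP and dSRF in the titles, without further detail, and a control line. The MRTFA gene encodes MRTF-A, which responds to actin and works with the transcription factor SRF, whose binding motif is called the CArG box. The overexpression is switched on by doxycycline, and all lines, the control line included, are labelled as given 1 ug/ml for 72 h, so no library shows the cells without the drug. The lines were grown either on matrigel, which is made of basement membrane proteins (3D), or in plates (2D). Each of the 8 groups has 3 libraries. Neither whether a line is 1 clone or a pool, nor whether the 3 libraries of a group were separate cultures, is stated, so the p-values measure the spread between these libraries, which may be technical.

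The promoters of the genes show what they share apart from their names. A RefSeq table (GRCh38.p14) gave promoter windows, running 250 bases before and 50 bases after a start site, for 33 of the 42 genes, all but DHX58, IRF7, IFIT2, IFITM2, OAS2, OASL, MX2, USP18 and GBP2. The ISRE core, GAAA, any 2 bases and GAAA again, read on both strands, was in a window of 23 of the 33 genes (69.7%), against 1195 of 27305 genes in the table (4.38%). The core of the gamma interferon activation site, TTCNNNGAA, was in 10 of 33 (30.3%), against 9.38% of all genes. The CArG box was in 2 of 33 (6.06%), ISG15 and GBP1, against 1.6% of all genes. RIGI has a window in the table, and it holds none of these motifs. Matches to different motifs may overlap, and a match of letters shows neither binding nor its absence. The stretches below are those of 8 genes on which the results turn, written 5′ to 3′ on the strand of the gene with the ISRE core in capitals. They are ISG15 at chr1:1013369-1013414 on the plus strand, GBP1 at chr1:89065311-89065350 on the minus strand, IFI6 at chr1:27672261-27672322 on the minus strand, MX1 at chr21:41420554-41420593 on the plus strand, IFITM1 at chr11:313985-314058 on the plus strand, IFIT1 at chr10:89392492-89392544 on the plus strand, IFIT3 at chr10:89327826-89327899 on the plus strand and DDX60 at chr4:168318781-168318855 on the minus strand.
ISG15: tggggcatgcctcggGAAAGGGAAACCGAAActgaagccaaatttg
GBP1: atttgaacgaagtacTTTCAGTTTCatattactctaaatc
IFI6: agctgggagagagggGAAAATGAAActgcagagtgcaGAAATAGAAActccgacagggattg
MX1: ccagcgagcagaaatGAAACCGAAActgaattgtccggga
IFITM1: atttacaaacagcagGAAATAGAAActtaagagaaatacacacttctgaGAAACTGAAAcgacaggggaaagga
IFIT1: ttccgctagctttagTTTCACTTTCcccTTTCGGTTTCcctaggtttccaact
IFIT3: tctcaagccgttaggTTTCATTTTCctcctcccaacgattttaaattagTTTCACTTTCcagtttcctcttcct
DDX60: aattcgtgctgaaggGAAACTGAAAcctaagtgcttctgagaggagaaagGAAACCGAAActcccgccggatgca

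The CArG boxes of ISG15 (chr1:1013391-1013430 on the plus strand) and GBP1 (chr1:89065350-89065389 on the minus strand) are shown because these are the genes of the list with both motifs, here with the CArG box in capitals. In ISG15 the box lies just downstream of the overlapping ISRE cores.
ISG15 CArG box: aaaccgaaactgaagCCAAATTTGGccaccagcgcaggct
GBP1 CArG box: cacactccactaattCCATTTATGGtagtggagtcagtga

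Before the comparisons, the libraries were checked. Total counts were 13968829 to 23023415 per library. Groups were taken from the titles, because the genotype field disagrees with the titles of 16 libraries. MRTFA bore out the titles as far as control against overexpression: it stood at 664 to 10720 CPM (read counts relative to the TMM-scaled library size) in the WT, dSAP and dSRF libraries and at 28.8 to 39.1 CPM in the control libraries. This check cannot tell the WT, dSAP and dSRF libraries from each other, nor 3D from 2D, so those labels rest on the titles. The lowest of the overexpressing libraries in MRTFA was 3D dSRF 1. Its correlation across genes was 0.952 with the mean of the other libraries of its group and 0.971 with the mean of 2D dSRF. The results on 3D dSRF are therefore also given without it. Of the markers of this line, VIM and CD44 were high and ESR1, PGR and CDH1 near 0. Of 7 immune cell markers, NKG7 was listed at 0 in every library and PTPRC, CD3E, LYZ and ITGAM reached at most 0.0417, 0.238, 0.238 and 0.837 TPM (deposited length-scaled values), while CD14 reached 18.2 TPM. CD68 stood at 134 to 193 TPM in 3D dSRF and 182 to 208 TPM in 2D dSRF, against 27.3 to 52.4 TPM in the other groups, and EPCAM, an epithelial marker, also stood highest in dSRF, at 104 to 264 TPM in 3D and 165 to 183 TPM in 2D. The part of these shifts in the interferon gene results was not tested. In bulk libraries such as these, fewer cells of a kind and less RNA per cell cannot be told apart.

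Levels differed widely between the genes. On the TPM scale, which allows for gene length, 5 genes averaged over 100 TPM across the 8 groups, the overexpressing lines included, 26 from 10 to 100, 6 from 1 to 10 and 5 under 1. IFI27, a mitochondrial interferon-induced protein, was the highest at a mean of 516 TPM, followed by IFITM3, a membrane protein that blocks virus entry (360 TPM as a mean of the groups), the ubiquitin-like modifier ISG15 (183 TPM), BST2, which tethers budding virions (152 TPM), and IFI6 (117 TPM). The place of IFI6 rests on the dSRF line, since its group means were 287 TPM in 3D dSRF and 339 TPM in 2D dSRF, against 34.0 TPM in 3D control and 45.04 TPM in 2D control. The 5 under 1 TPM were CXCL10, GBP4, IFI44L, RSAD2 and CMPK2. The interferons themselves were at or near the limit of detection. None of 10 interferon ligands had enough counts to be tested: IFNL1 had 39 counts over all 24 libraries, IFNL3 had 5, IFNG had 1, and IFNB1, IFNA1, IFNA2, IFNE, IFNK, IFNW1 and IFNL2 were listed at 0.

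**Figure D1:**
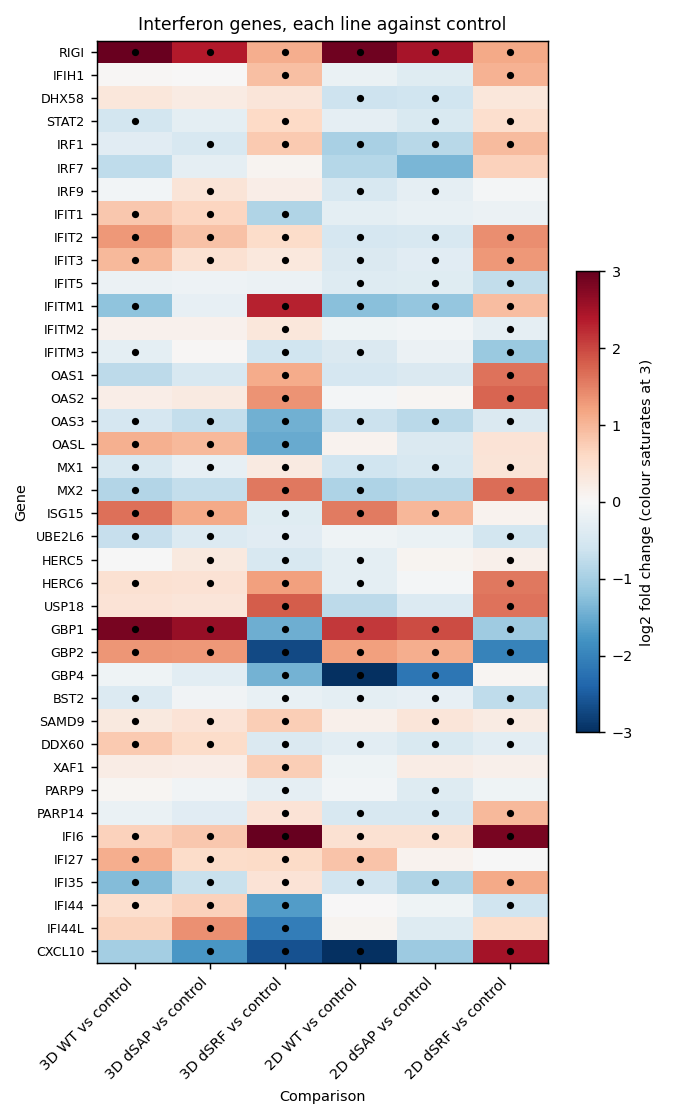
Log2 fold change of each tested interferon gene (rows, by role) in the WT, dSAP and dSRF lines against control, in 3D and 2D (columns). Dots mark adjusted p under 0.05. RIGI is dark red in every column for WT and dSAP, and GBP1 and GBP2 are red in WT and dSAP and blue in dSRF. CXCL10 in 2D WT is a fitted value from 0 counts.

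In the WT line more of the genes rose than fell in 3D, and more fell than rose in 2D. RIGI, ISG15, GBP1, GBP2, IFI6 and IFI27 rose in both 3D and 2D, with RIGI 7.84-fold up in 3D and 7.62-fold up in 2D. IFI35, OAS3, BST2, IFITM3, MX1, MX2 and IFITM1 fell in both. In 3D, 14 of the 40 tested genes rose and 9 fell, against 35% of all genes called in either direction, 18% up and 17% down. The 3D split was narrower at an unadjusted edgeR p under 0.05, at 14 up and 12 down. Without 3D dSRF 1, which feeds the shared estimate of spread, 31 genes were called in 3D, against 48.1% of all genes. In 2D, 6 rose and 19 fell, against 39.3% of all genes called, 20.1% up and 19.2% down. The median log2 fold change of the 40 genes was 0.09 in 3D and -0.29 in 2D, and that of all genes -0.02 in both. All calls are at an adjusted p under 0.05 in an edgeR quasi-likelihood fit, and log2 fold changes are given with the standard error of that fit (n = 3 per group).

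RIGI (ENSG00000107201, chr9:32455705-32526324, minus strand), which encodes the RNA sensor RIG-I, had 247, 252 and 244 CPM in 3D WT, against 32.6, 32.0 and 29.995 CPM in 3D control. In 2D it had 208, 202 and 209 CPM in WT, against 26.8, 29.7 and 25.0 CPM in control. The groups were far apart in both cultures, and the log2 fold change was 2.97 ± 0.09 in 3D (adjusted p = 3.12e-15) and 2.93 ± 0.09 in 2D (adjusted p = 6.38e-15). The other sensors of the list were called higher in neither culture: MDA5 (IFIH1) stood at 0.04 in 3D and -0.19 in 2D as log2 fold changes, neither called, and DHX58, a regulator of both sensors, stood at 0.33 in 3D, not called, and fell by 0.62 on the log2 scale in 2D (adjusted p = 0.0305, 0.106 on log2(TPM + 1), and 0.0637 to 0.128 without any 1 of 4 libraries).

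ISG15 (ENSG00000187608, chr1:1001138-1014540, plus strand) encodes a small modifier that is joined to other proteins. Its level was 110.2, 109 and 101.5 CPM in 3D WT, against 33.6, 35.3 and 33.9 CPM in 3D control, and 90.1, 88.8 and 89.8 CPM in 2D WT, against 31.2, 31.7 and 27.8 CPM in 2D control. All WT libraries lay above all control libraries, with log2 fold changes of 1.64 ± 0.08, adjusted p = 3.67e-12 in 3D and 1.57 ± 0.08, adjusted p = 8.45e-12 in 2D. The enzymes that attach and remove ISG15 were not called higher in both cultures. UBE2L6, the conjugating enzyme, fell in 3D (-0.70 ± 0.09) and was not called in 2D (-0.13 ± 0.08), HERC5, the main ligase, was at -0.01 ± 0.06 in 3D, not called, and fell in 2D (-0.29 ± 0.06), and USP18, which removes ISG15, was called in neither culture.

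GBP1 and GBP2 encode large GTPases that attack vacuoles holding microbes. GBP1 (ENSG00000117228, chr1:89052319-89065360, minus strand) had 189, 198 and 187 CPM in 3D WT, against 26.7, 28.9 and 24.1 CPM in 3D control, and 172, 165 and 165 CPM in 2D WT, against 38.3, 37.8 and 40.1 CPM in 2D control. GBP2 (ENSG00000162645, chr1:89106132-89150456, minus strand) had 137, 143 and 131 CPM in 3D WT, against 57.9, 56.4 and 51.2 CPM in 3D control, and 166, 162 and 174 CPM in 2D WT, against 73.7, 70.3 and 70.0 CPM in 2D control. Neither gene's groups overlapped in either culture. GBP1 rose by 2.85 ± 0.34 on the log2 scale in 3D and 2.11 ± 0.33 in 2D, and GBP2 by 1.31 ± 0.09 in 3D and 1.23 ± 0.09 in 2D, with adjusted p = 1.68e-06 and 3.69e-05 for GBP1 and 4.91e-10 and 1.23e-09 for GBP2. Their relative GBP4 went the other way in 2D, with 0.18, 0.14 and 0.127 CPM in WT, against 1.8, 1.22 and 1.74 CPM in control, and was not called in 3D (-0.12 ± 0.24). That fall rests on 7 counts in 2D WT and 88 in 2D control, and its call was lost on log2(TPM + 1) (adjusted p = 0.0854).

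The IFIT family, whose proteins bind foreign RNA, moved in opposite directions in 3D and 2D at IFIT2 and IFIT3. IFIT2 had 72.1, 78.4 and 76.6 CPM in 3D WT, against 30.3, 32.3 and 29.9 CPM in 3D control, but 12.5, 15.2 and 12.9 CPM in 2D WT, against 19.9, 17.5 and 19.8 CPM in 2D control. IFIT3 had 144, 146 and 145 CPM in 3D WT, against 75.7, 74.7 and 72.2 CPM in 3D control, but 32.5, 36.5 and 35.3 CPM in 2D WT, against 47.4, 44.2 and 48.2 CPM in 2D control. WT libraries lay above control in 3D and below it in 2D for both genes, with log2 fold changes of 1.30 ± 0.15 and -0.50 ± 0.16 for IFIT2 and 0.97 ± 0.11 and -0.43 ± 0.12 for IFIT3 in 3D and 2D. IFIT1 rose in 3D (0.81 ± 0.13) and was not called in 2D (-0.29 ± 0.14). IFIT5 was not called in 3D (-0.19 ± 0.10) and fell in 2D (-0.39 ± 0.10). DDX60, a helicase that aids RNA sensing, rose in 3D (0.79 ± 0.09) and fell in 2D (-0.32 ± 0.09), and OASL, a catalytically inactive relative of the OAS enzymes, rose in 3D (1.06 ± 0.16) and was not called in 2D (0.12 ± 0.18). The 2D falls of IFIT2 and IFIT3 are small: that of IFIT2 was lost without any 1 of 4 libraries, with adjusted p up to 0.088 without 2D WT 1, that of IFIT3 without 2D WT 1 (adjusted p = 0.0516), and that of DDX60 without 2D control 1 (adjusted p = 0.0585).

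Other genes of the WT line moved in both directions. The fall of MX2 in 3D (-0.88 ± 0.31) was lost with no filter on low counts (adjusted p = 0.0548) and when any of the 6 libraries was left out (adjusted p 0.0592 to 0.103), and that of OAS3 (-0.51 ± 0.15) on log2(TPM + 1) (adjusted p = 0.0878). MX1, a GTPase that blocks influenza virus replication, fell in 3D (-0.49 ± 0.07) and 2D (-0.59 ± 0.07), as did IFI35 (-1.30 ± 0.11 in 3D and -0.58 ± 0.12 in 2D). IRF1, an activator of interferon genes, fell in 2D (-0.98 ± 0.14) and was not called in 3D (-0.33 ± 0.14). STAT2 fell in 3D (-0.56 ± 0.13), and IRF9 fell in 2D (-0.49 ± 0.10). IFI27 rose in 3D (1.09 ± 0.06) and 2D (0.86 ± 0.06). IFI6 rose less, at 0.69 ± 0.18 in 3D and 0.47 ± 0.17 in 2D, and its 2D call was lost on log2(TPM + 1) (adjusted p = 0.0981) and without any 1 of 4 libraries (adjusted p 0.0955 to 0.164). The 2D fall of MX2 was likewise lost without any 1 of 5 libraries (adjusted p 0.0502 to 0.114). IFITM1 fell in both cultures, by 1.21 on the log2 scale in 3D and 1.26 in 2D, but on log2(TPM + 1) its 3D call was lost (adjusted p = 0.776), and reads of IFITM1, IFITM2 and IFITM3 can be shared between these near-identical genes, so their split is uncertain. CXCL10, a chemokine that attracts T cells, had 0 counts in the 2D WT libraries and 5 in the 2D control libraries together, and no fold is given for it there.

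**Figure D2:**
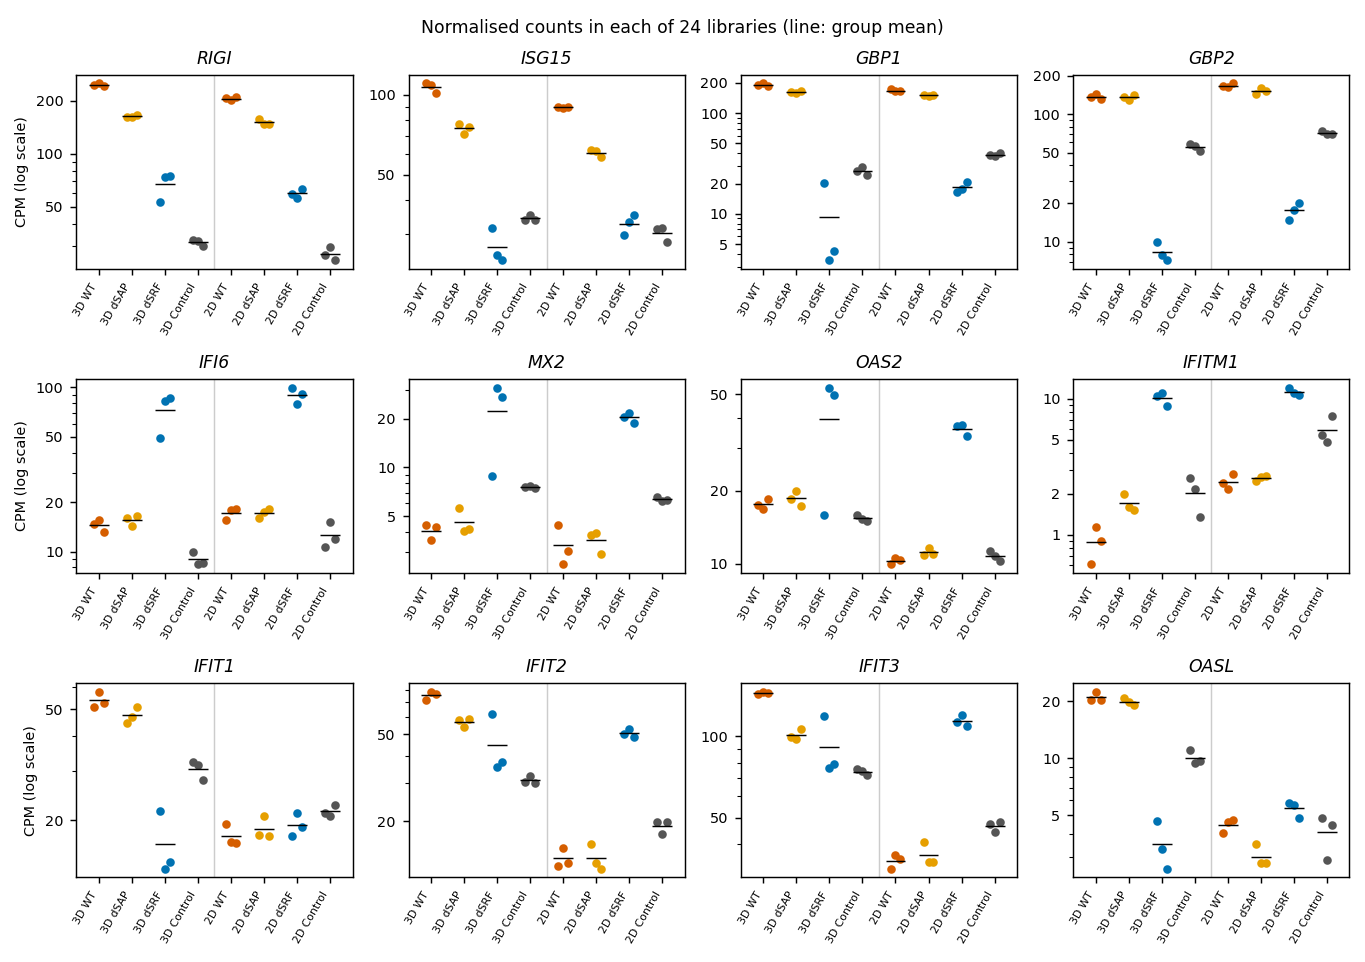
Normalised CPM (log scale) of 12 interferon genes in each of the 24 libraries (points), with the mean of each group (lines), for 3D on the left and 2D on the right of each panel. RIGI, ISG15, GBP1 and GBP2 are highest in WT and dSAP, IFI6, MX2, OAS2 and IFITM1 are highest in dSRF, and the library 3D dSRF 1 lies away from the other 2 of its group in MX2, OAS2 and GBP1.

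The dSAP and WT lines share their control libraries, so the dSAP values are given on their own and the difference from WT was tested directly. RIGI, ISG15, GBP1, GBP2, IFI6 and SAMD9 rose in both cultures against control, and IFI35, OAS3, IRF1 and MX1 fell in both. In 3D, 17 of 40 genes rose and 6 fell, against 29.6% of all genes called, 16.5% up and 13.1% down. In 2D, 6 rose and 16 fell, against 32.9% of all genes called, 17.5% up and 15.4% down, and on log2(TPM + 1) 5 rose and 8 fell in 2D. The median log2 fold change was 0.22 in 3D and -0.37 in 2D, against 0.00 and -0.01 for all genes. The 3D fall of MX1 and the 2D rise of IFI6 were lost on log2(TPM + 1), at adjusted p = 0.167 and 0.0522. Leaving out 1 library also ended the IFI6 call for 5 libraries (adjusted p 0.0574 to 0.203) and the MX1 call for 1 library (adjusted p = 0.0777).

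Against control, the dSAP genes ranged from large rises to moderate falls. GBP1 rose by 2.62 ± 0.33 on the log2 scale in 3D and 1.95 ± 0.32 in 2D, and GBP2 by 1.29 ± 0.09 in 3D and 1.09 ± 0.09 in 2D. IFIT2 had 58.0, 54.3 and 58.6 CPM in 3D dSAP, against 30.3, 32.3 and 29.9 CPM in 3D control (0.89 ± 0.15), and 15.8, 12.9 and 12.2 CPM in 2D dSAP, against 19.9, 17.5 and 19.8 CPM in 2D control (-0.49 ± 0.16). The dSAP libraries lay above control in 3D and below it in 2D, but the 2D call was lost without any 1 of 4 libraries (adjusted p 0.0714 to 0.107). OASL rose in 3D (0.98 ± 0.16), and so did DDX60 (0.55 ± 0.09), which fell in 2D (-0.46 ± 0.09). SAMD9, a factor that restricts poxviruses, rose in 3D (0.41 ± 0.08) and 2D (0.36 ± 0.07). IFI35 fell in 3D (-0.66 ± 0.11) and 2D (-0.90 ± 0.12), and IRF1 had 37.5, 37.3 and 41.8 CPM in 3D dSAP, against 53.1, 56.5 and 54.2 CPM in 3D control (-0.49 ± 0.14), and 23.998, 25.2 and 24.9 CPM in 2D dSAP, against 44.0, 45.1 and 42.2 CPM in 2D control (-0.83 ± 0.14).

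Tested against WT directly, the dSAP line had 8 of 40 genes higher and 4 lower in 3D, against 12.1% of all genes called (5.45% higher and 6.63% lower), and 2 higher and 3 lower in 2D, against 12.8% (5.09% higher and 7.71% lower). The median difference was -0.02 in 3D and 0.02 in 2D, against 0.02 and 0.00 for all genes. On log2(TPM + 1) the 2D split was 4 higher and 3 lower, and without the library 3D dSRF 1, which feeds the shared estimate of spread, 11 genes were called in 2D, against 27.7% of all genes. The 3D split also turned on the setting: without 3D dSRF 1, 8 genes were higher and 10 lower, against 27.2% of all genes called, and in a fit of the 3D dSAP and 3D WT libraries alone 11 were higher and 11 lower, against 33.4%. RIGI, ISG15 and IFI27 were lower in dSAP than in WT in both cultures. RIGI had 161, 163 and 165 CPM in 3D dSAP, against 247, 252 and 244 CPM in 3D WT (-0.60 ± 0.09 on the log2 scale, adjusted p = 6.79e-05), and 158, 148 and 148 CPM in 2D dSAP, against 208, 202 and 209 CPM in 2D WT (-0.45 ± 0.09, adjusted p = 0.00141). ISG15 had 77.8, 71.3 and 75.4 CPM in 3D dSAP, against 110.2, 109 and 101.5 CPM in 3D WT (-0.51 ± 0.08, adjusted p = 0.00015), and 61.9, 61.5 and 58.1 CPM in 2D dSAP, against 90.1, 88.8 and 89.8 CPM in 2D WT (-0.57 ± 0.08, adjusted p = 6.98e-05). No dSAP library reached a WT library in either gene, although both genes stood well above control in dSAP (log2 fold change 2.37 and 2.48 for RIGI and 1.13 and 1.00 for ISG15, in 3D and 2D).

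IFI27 was lower in dSAP than in WT by 0.55 on the log2 scale in 3D and 0.75 in 2D, and IFIT3 was lower in 3D (-0.52 ± 0.11). HERC5 was higher in dSAP than in WT in both cultures (0.30 ± 0.06 in 3D and 0.36 ± 0.06 in 2D), as was IFITM3 (0.31 ± 0.07 and 0.25 ± 0.07). The IFITM3 calls were the less stable: the 2D call was lost with no filter on low counts (adjusted p = 0.0666) and without any 1 of 4 libraries (adjusted p 0.0559 to 0.184), and the 3D call without 3D WT 1 (adjusted p = 0.0522) or 3D dSAP 3 (adjusted p = 0.0554). IFI35 (0.65 ± 0.12) and IRF9 (0.45 ± 0.09) were higher in 3D dSAP than in 3D WT. GBP1 and GBP2 were not called between the 2 lines: in 3D GBP1 had 162, 159.7 and 166 CPM in dSAP and GBP2 had 137, 128 and 140.1 CPM, and the log2 differences from WT were -0.23 ± 0.31 and -0.02 ± 0.09. In GBP1 every 3D dSAP library lay below every 3D WT library, while in GBP2 the libraries overlapped. The GBP1 error uses the shared estimate of spread, which 3D dSRF 1 feeds. Its missing call therefore does not show that GBP1 is equal in the 2 lines. MRTFA itself was higher in dSAP than in WT by 1.22 ± 0.39 in 3D (adjusted p = 0.0489) and 0.95 ± 0.39 in 2D (adjusted p = 0.124), and without 3D dSRF 1 the 2D difference was called too (0.95 ± 0.04, adjusted p = 2.49e-14). The part of this in the differences was not tested.

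The dSRF line had a different pattern. The guanylate-binding proteins GBP1 and GBP2 stood below control in both cultures, RIGI rose less than in WT, and a group with IFI6, OAS1, OAS2, MX2, USP18, HERC6, IFITM1, IFIH1, IRF1 and STAT2 rose. In 3D, 20 of 40 genes rose and 16 fell, against 66.4% of all genes called, 35.1% up and 31.3% down. Without the library 3D dSRF 1 the split was again 20 and 16, with 72.8% of all genes called, and IFIT3 and PARP9 lost their calls while DHX58 and IFIT5 gained one. In 2D, 19 rose and 10 fell, against 66% of all genes called, 34.5% up and 31.5% down, and on log2(TPM + 1) 19 rose and 6 fell. The median log2 fold change was 0.29 in 3D (0.23 without that library) and 0.36 in 2D, against 0.02 in both for all genes. The 29 genes called in 2D are 72.5% of the 40, near the share of all genes, and the 36 called in 3D are 90%. In a fit of the 3D dSRF and 3D control libraries alone, GBP1 (adjusted p = 0.106), OAS1 (adjusted p = 0.0763) and ISG15 (adjusted p = 0.0507) were among 11 genes that lost their call.

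IFI6 (ENSG00000126709, chr1:27666061-27672218, minus strand), a small protein of the endoplasmic reticulum and mitochondria, rose most in this line. Its level was 49.3, 82.6 and 85.5 CPM in 3D dSRF, against 9.97, 8.36 and 8.53 CPM in 3D control, and 99.3, 78.9 and 90.4 CPM in 2D dSRF, against 10.6, 15.1 and 11.9 CPM in 2D control. The log2 fold change was 3.02 ± 0.17, adjusted p = 1.3e-11 in 3D, 3.23 without 3D dSRF 1, and 2.84 ± 0.17, adjusted p = 2.89e-11 in 2D. All dSRF libraries lay above all control libraries, and 3D dSRF 1 was the lowest of the dSRF libraries.

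The OAS family split, while MX1 and MX2 rose in both cultures. The 3D call of MX1 was lost in a fit of the 3D dSRF and 3D control libraries alone (adjusted p = 0.0849). OAS2 (ENSG00000111335, chr12:112978395-113011723, plus strand), which makes a messenger that activates RNase L, had 15.9, 53.3 and 49.8 CPM in 3D dSRF, against 15.9, 15.4 and 15.05 CPM in 3D control, and 37.0, 37.5 and 33.7 CPM in 2D dSRF, against 11.27, 10.8 and 10.3 CPM in 2D control. MX2 (ENSG00000183486, chr21:41361943-41409390, plus strand), a GTPase that restricts HIV, had 8.9, 31.2 and 27.3 CPM in 3D dSRF, against 7.54, 7.66 and 7.42 CPM in 3D control, and 20.5, 21.8 and 19.0 CPM in 2D dSRF, against 6.56, 6.16 and 6.31 CPM in 2D control. In both genes 3D dSRF 1 lay close to the control level while the other 2 libraries of its group were well above it. The log2 fold change of OAS2 was 1.36 ± 0.26 in 3D, 1.74 without that library, and 1.74 ± 0.26 in 2D, and that of MX2 1.57 ± 0.29, 1.95 without it, and 1.69 ± 0.30 in 2D. OAS1 rose in 3D (1.12 ± 0.30, 1.45 without 3D dSRF 1) and 2D (1.64 ± 0.31), while OAS3 fell in 3D (-1.45 ± 0.15, -1.80 without it) and 2D (-0.44 ± 0.15, adjusted p = 0.0141, and 0.256 on log2(TPM + 1)). OASL fell in 3D (-1.51 ± 0.18, -1.77 without it) and was not called in 2D (0.40 ± 0.18).

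Among sensors and transcription factors the dSRF line rose in both cultures at RIGI (1.10 ± 0.09 in 3D, 1.24 without 3D dSRF 1, and 1.14 ± 0.09 in 2D) and at IFIH1 (0.89 ± 0.15 in 3D, 1.12 without it, and 1.04 ± 0.15 in 2D). IRF1 had 62.5, 112 and 107 CPM in 3D dSRF, against 53.1, 56.5 and 54.2 CPM in 3D control, and 86.5, 86.9 and 80.2 CPM in 2D dSRF, against 44.0, 45.1 and 42.2 CPM in 2D control. All dSRF libraries were above control, with log2 fold changes of 0.78 ± 0.14 in 3D (1.00 without 3D dSRF 1) and 0.95 ± 0.14 in 2D. STAT2 rose as well (0.61 ± 0.13 in 3D, 0.78 without that library, and 0.50 ± 0.13 in 2D), and IRF9 and IRF7 were called in neither culture.

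GBP1 and GBP2 fell in dSRF. GBP2 had 9.97, 7.9 and 7.2 CPM in 3D dSRF, against 57.9, 56.4 and 51.2 CPM in 3D control, and 14.8, 17.8 and 20.3 CPM in 2D dSRF, against 73.7, 70.3 and 70.0 CPM in 2D control, a log2 fold change of -2.72 ± 0.10, adjusted p = 2.42e-14 in 3D (-2.87 without 3D dSRF 1) and -2.01 ± 0.10, adjusted p = 1.26e-12 in 2D. GBP1 had 20.2, 3.47 and 4.24 CPM in 3D dSRF, against 26.7, 28.9 and 24.1 CPM in 3D control, and 16.6, 17.6 and 20.6 CPM in 2D dSRF, against 38.3, 37.8 and 40.1 CPM in 2D control. The library 3D dSRF 1 decided the size of the GBP1 change in 3D, which was -1.48 ± 0.36 with it and -2.78 without it. In 2D the fall of GBP1 was -1.08 ± 0.34, adjusted p = 0.00994. In ISG15 the dSRF line was close to control, with 31.5, 24.9 and 23.9 CPM in 3D dSRF and 29.8, 33.1 and 35.2 CPM in 2D dSRF, a fall in 3D (-0.35 ± 0.08, -0.49 without 3D dSRF 1) and 0.12 ± 0.08 in 2D, not called.

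The effect of dSRF on IFIT1, IFIT2 and IFIT3 differed between the cultures by the interaction test. IFIT3 had 119, 76.5 and 78.9 CPM in 3D dSRF, against 75.7, 74.7 and 72.2 CPM in 3D control, and 113, 120.4 and 109.8 CPM in 2D dSRF, against 47.4, 44.2 and 48.2 CPM in 2D control. IFIT2 had 62.1, 35.3 and 37.2 CPM in 3D dSRF and 50.4, 52.7 and 48.7 CPM in 2D dSRF. In 3D the rise of IFIT3 rested on 3D dSRF 1, at 0.30 ± 0.11 with it and 0.06 without it (adjusted p = 0.336), while in 2D it was 1.29 ± 0.12, adjusted p = 9.2e-09. IFIT2 rose by 0.55 ± 0.15 in 3D (0.23 without that library, adjusted p = 0.0111) and 1.404 ± 0.15 in 2D. DDX60 fell in 3D (-0.44 ± 0.09, -0.32 without it) and 2D (-0.32 ± 0.09, adjusted p = 0.00472, and 0.218 on log2(TPM + 1)). BST2 fell in 3D (-0.21 ± 0.07, -0.21 without it) and 2D (-0.75 ± 0.07), and IFI35, which was lower than control in WT and dSAP, rose in 3D (0.42 ± 0.11, 0.47 without it) and 2D (1.13 ± 0.11).

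Other effectors of the dSRF line moved in both directions. HERC6, a relative of HERC5, rose in 3D (1.22 ± 0.10, 1.37 without 3D dSRF 1) and 2D (1.57 ± 0.10), and USP18 rose in 3D (1.82 ± 0.39, 2.19 without it) and 2D (1.62 ± 0.39). IFITM1 had 10.49, 11.1 and 8.78 CPM in 3D dSRF, against 2.61, 2.16 and 1.35 CPM in 3D control, and 12.0, 11.0 and 10.6 CPM in 2D dSRF, against 5.44, 4.82 and 7.39 CPM in 2D control. Its 3D rise was 2.31 ± 0.22 (2.28 without 3D dSRF 1) and its 2D rise 0.93 ± 0.20, the 2D call being lost on log2(TPM + 1) (adjusted p = 0.0646), while IFITM3 fell in 3D (-0.59 ± 0.07, -0.64 without it) and 2D (-1.12 ± 0.07). IFI44 fell in 3D (-1.68 ± 0.17, -1.78 without 3D dSRF 1) and 2D (-0.61 ± 0.17, adjusted p = 0.00432, and 0.0887 on log2(TPM + 1)). PARP14 rose in 3D (0.41 ± 0.13, 0.63 without it) and 2D (0.97 ± 0.13). Its 3D call was lost without either of 2 other libraries (adjusted p 0.0637 to 0.0663). CXCL10 fell in 3D dSRF (14 counts over the group, of which 8 in 3D dSRF 1, against 75 in 3D control, with a log2 fold change of -2.61 ± 0.46 and -3.11 without that library) and rose in 2D dSRF (27 counts, against 5 in 2D control). CMPK2, not tested, had 29 counts in 3D dSRF, of which 8 in 3D dSRF 1, and 17 in 2D dSRF, against 5 in 3D control and 0 in 2D control, but it overlaps RSAD2 on the opposite strand, and the use of strand in counting is not stated.

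Compared directly with WT, the dSRF line differed at most of the genes. In 3D dSRF 19 of 40 were higher and 18 lower than in 3D WT, against 65.9% of all genes called (34.2% higher and 31.6% lower), and without 3D dSRF 1 the counts were 20 and 18, against 72.9%. In 2D 21 were higher and 10 lower, against 64% (33.6% higher and 30.4% lower). The median difference was 0.11 in 3D (0.19 without 3D dSRF 1) and 0.46 in 2D, against 0.02 and 0.03 for all genes. Higher in dSRF in both cultures were 14 genes, IFI35, OAS1, OAS2, IFIH1, IRF1, IFI6, HERC6, MX1, STAT2, PARP14, MX2, USP18, IFITM1 and IRF9. In a fit of the 3D dSRF and 3D WT libraries alone, the 3D calls of OAS2 (adjusted p = 0.0672), USP18 (0.055) and PARP14 (0.0596) were lost. The 3D call of IRF9 was lost without 3D dSRF 3 (adjusted p = 0.0509). Lower in both were 7 genes, RIGI, GBP1, IFI44, IFITM3, GBP2, IFI27 and ISG15, the 2D call of IFI44 being lost on log2(TPM + 1) (adjusted p = 0.51). The largest of these differences were at GBP1, with -4.32 ± 0.37 in 3D (-5.63 without 3D dSRF 1) and -3.19 ± 0.35 in 2D, and GBP2, with -4.03 ± 0.11 in 3D (-4.19 without it) and -3.24 ± 0.10 in 2D. The log2 difference of ISG15 was -1.996 ± 0.08 in 3D (-2.14 without it) and -1.45 ± 0.08 in 2D, and that of RIGI -1.88 ± 0.09 in 3D (-1.73 without it) and -1.79 ± 0.09 in 2D. The 2 genes of the list with a CArG box in the promoter window, ISG15 and GBP1, are among those 7, as are IFI44, IFITM3 and IFI27, whose windows hold the ISRE core and no CArG box. Of the rest of the 7, RIGI has a window with none of the motifs searched for, and GBP2 has no window. MRTFA was not called between the 2 lines (-0.39 ± 0.39 in 3D and -0.55 ± 0.39 in 2D). Without 3D dSRF 1 the MRTFA difference was 0.10 ± 0.05 in 3D (adjusted p = 0.0596) and was called in 2D (-0.55 ± 0.04, adjusted p = 9.03e-12), and its part in the differences was not tested.

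**Figure D3:**
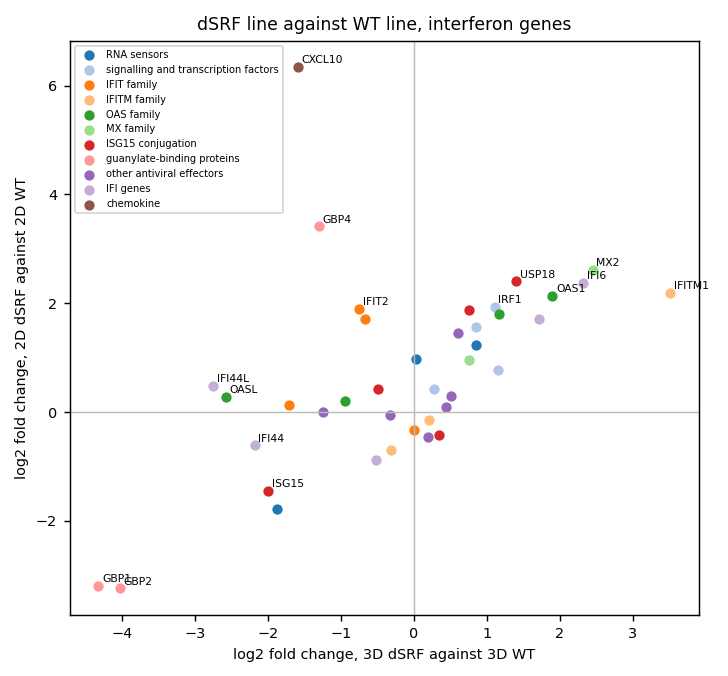
Log2 fold change of each tested gene in dSRF against WT in 3D (horizontal axis) and 2D (vertical axis), coloured by role, with the genes beyond 1.9 in either culture named. GBP1 and GBP2 lie at the lower left, IFITM1, MX2 and IFI6 at the upper right, and IFIT2, GBP4 and CXCL10 were higher in 2D dSRF and lower in 3D dSRF. The height of CXCL10 is a fitted value against 0 counts in 2D WT.

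The genes were then compared between the 3D and 2D libraries within each line. Culture cannot be told apart from any other difference between these libraries. In 3D against 2D, the WT line had 20 of 40 genes higher and 8 lower, against 50% of all genes called (24.4% higher and 25.7% lower). The dSAP line had 21 higher and 8 lower, against 47.8% (24.2% higher and 23.5% lower), and the dSRF line 1 higher and 9 lower, against 17% (7.19% higher and 9.84% lower). The control line had 12 higher and 12 lower, against 47.4% (23% higher and 24.4% lower). The control split turned on the setting: it was 15 higher and 7 lower on log2(TPM + 1), 20 and 14 without 3D dSRF 1, which feeds the shared estimate of spread (58.6% of all genes called), and 19 and 13 in a fit of the control libraries alone (60% of all genes called). The median log2 fold change was 0.28 in WT, 0.45 in dSAP, -0.17 in dSRF (-0.12 without 3D dSRF 1) and 0.20 in control, against 0.00 in WT, 0.01 in dSAP, -0.02 in dSRF and 0.00 in control for all genes. The dSRF count depended on the libraries: it was 23 without 3D dSRF 1 (7 higher and 16 lower, 48.2% of all genes called), and 6, 5, 3, 6 and 5 without 2D dSRF 1, 2 and 3 and 3D dSRF 2 and 3. In a fit of the dSRF libraries alone it was 0 of 38 tested, with 0% of all genes called.

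In the control line IFI44L, OASL, IFI44, IFIT2 and CXCL10 were among the genes higher in 3D. IFI44L had 0.928, 1.7 and 0.953 CPM in 3D control, against 0.194, 0.0642 and 0.272 CPM in 2D control, OASL was higher by 1.30 ± 0.18 on the log2 scale, IFI44 by 1.02 ± 0.16 and IFIT2 by 0.69 ± 0.15. CXCL10 had 75 counts over the 3D control libraries and 5 over the 2D ones. The IFITM genes were lower in 3D control, with IFITM1 at -1.53 ± 0.22, IFITM2 at -0.86 ± 0.09 and IFITM3 at -0.77 ± 0.07. In WT the culture difference at IFIT2 and IFIT3 was larger than in control by the interaction test, with IFIT2 at 2.48 ± 0.16 and IFIT3 at 2.06 ± 0.12 as 3D against 2D, while RIGI (0.26 ± 0.09) and ISG15 (0.25 ± 0.08) were called with smaller differences.

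**Figure D4:**
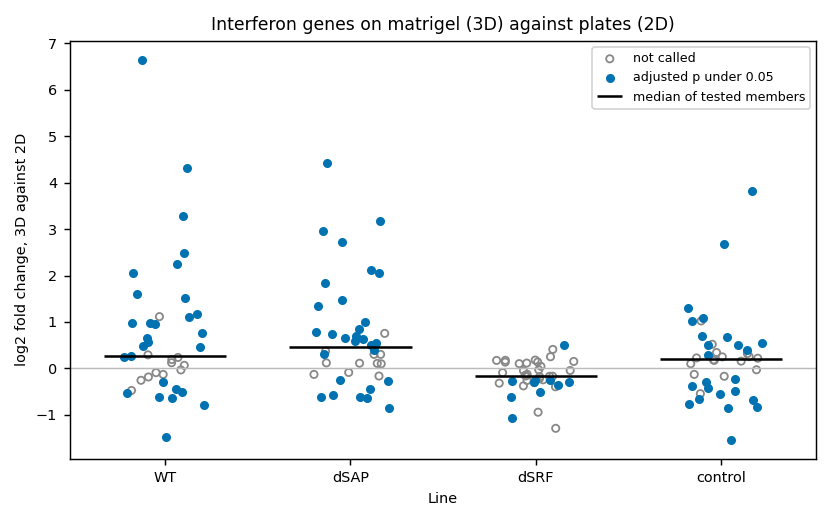
Log2 fold change of each tested gene in 3D against 2D (vertical axis) within each line (horizontal axis). Filled points have adjusted p under 0.05 and bars mark medians. The medians are 0.28 in WT, 0.45 in dSAP, -0.17 in dSRF and 0.20 in control.

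Whether the effect of a line differed between the cultures was tested as an interaction. For WT, 9 of 40 genes had a more positive effect in 3D and 2 a more negative one, against 9.18% of all genes called (4.22% more positive and 4.96% more negative). For dSAP the counts were 8 and 0, against 2.34% of all genes called (1.13% and 1.2%), and on log2(TPM + 1) 6 and 1. For dSRF they were 7 and 14, against 29.2% (14.7% and 14.6%). At an unadjusted p under 0.05, dSAP had 15 genes with a more positive effect and 0 with a more negative one, and with DESeq2 9 and 0. Without 3D dSRF 1 the number called was 18 for WT (23.8% of all genes), 15 for dSAP (11.4%) and 23 for dSRF (43.8%), and it was 5 for dSAP without 2D dSAP 1. The WT, dSAP and dSRF interactions share control libraries. IFIT2 had an interaction of 1.79 ± 0.22 for WT, 1.37 ± 0.22 for dSAP and -0.86 ± 0.21 for dSRF (-1.17 without 3D dSRF 1). OASL had 0.94 ± 0.25 for WT, 1.42 ± 0.25 for dSAP and -1.91 ± 0.25 for dSRF (-2.17 without it). The genes that rose most in WT were not called in its interaction: RIGI was at 0.04 ± 0.13, ISG15 at 0.07 ± 0.11, GBP1 at 0.74 ± 0.45 and GBP2 at 0.08 ± 0.13 for WT. The GBP1 error is the widest of these. It uses the shared estimate of spread, which 3D dSRF 1 feeds, although that library is not compared here. The missing call therefore does not show that the GBP1 rise in WT is the same in both cultures. For dSRF the GBP1 interaction was -0.40 ± 0.50, not called, and -1.71 without 3D dSRF 1 (adjusted p = 7.51e-11).

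The rest of the pathway was read from lists of receptors, sensors, regulators and further induced genes. The counts are read against the share of all genes called in either direction, 35% in 3D WT, 29.6% in 3D dSAP, 66.4% in 3D dSRF, 39.3% in 2D WT, 32.9% in 2D dSAP and 66% in 2D dSRF. Among 9 receptors and kinases, 0 rose and 3 fell in 3D WT, 1 rose and 3 fell in 3D dSAP, 3 rose and 2 fell in 3D dSRF, and in 2D 1 rose and 1 fell in WT, 1 rose and 3 fell in dSAP and 6 rose and 2 fell in dSRF. As shares these are 33.3% in 3D WT, 44.4% in 3D dSAP, 55.6% in 3D dSRF, 22.2% in 2D WT, 44.4% in 2D dSAP and 88.9% in 2D dSRF, on a list of 9 genes where 1 gene moves the share far. IL10RB, a chain shared by the interferon lambda and interleukin 10 receptors, fell in 3D dSRF (-1.01 ± 0.12, -1.25 without 3D dSRF 1) and 2D dSRF (-1.42 ± 0.12), and IFNGR1, the ligand-binding chain of the interferon gamma receptor, rose (0.39 ± 0.07 in 3D, 0.48 without 3D dSRF 1 and 0.75 ± 0.07 in 2D). Counts of IL10RB, not scaled for depth, were 3642 in 3D WT and 3844 in 3D dSAP, against 4401 in 3D control. In 2D they were 4559 in WT and 4222 in dSAP, against 5630 in control. IFNLR1, the specific chain of the lambda receptor, rose in dSAP (0.50 ± 0.14 in 3D and 0.64 ± 0.14 in 2D) and dSRF (0.71 ± 0.14 in 3D, 0.92 without 3D dSRF 1 and 1.12 ± 0.14 in 2D). Without 3D dSRF 1, 5 rose and 2 fell in 3D dSRF.

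Of 10 tested sensing and relay genes, 1 rose and 2 fell in 3D WT, 1 and 1 in 3D dSAP, and 4 and 3 in 3D dSRF, and in 2D 0 and 1 in WT, 1 and 1 in dSAP and 4 and 2 in dSRF. The shares called were 30% in 3D WT, 20% in 3D dSAP, 70% in 3D dSRF and 60% in 2D dSRF, near those of all genes (35%, 29.6%, 66.4% and 66%), and 10% in 2D WT and 20% in 2D dSAP, below them (39.3% and 32.9%). Without 3D dSRF 1, 4 rose and 4 fell in 3D dSRF. STING1, the adaptor of cytosolic DNA sensing, rose most in dSRF, by 3.41 ± 0.13 on the log2 scale in 3D (3.60 without 3D dSRF 1) and 4.71 ± 0.14 in 2D. IRF3 and IKBKE, a transcription factor and a kinase downstream of the sensors, rose as well, IRF3 by 0.62 ± 0.11 in 3D (0.81 without 3D dSRF 1) and 0.80 ± 0.11 in 2D and IKBKE by 0.49 ± 0.14 in 3D (0.71 without 3D dSRF 1) and 1.04 ± 0.14 in 2D. IKBKE fell in WT (-0.55 ± 0.14 in 3D and -0.83 ± 0.14 in 2D) and dSAP (-0.53 ± 0.14 and -0.73 ± 0.14). TLR3, a sensor of double-stranded RNA, rose in 3D WT (1.03 ± 0.13).

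Among 9 negative regulators, 1 rose and 4 fell in 3D WT, 1 and 2 in 3D dSAP, and 4 and 4 in 3D dSRF, and in 2D 1 and 4 in WT, 1 and 4 in dSAP and 3 and 3 in dSRF. The shares called were 55.6% in 3D WT, 33.3% in 3D dSAP, 88.9% in 3D dSRF, 55.6% in 2D WT, 55.6% in 2D dSAP and 66.7% in 2D dSRF, against 35%, 29.6%, 66.4%, 39.3%, 32.9% and 66% of all genes. In 3D dSRF without 3D dSRF 1 the counts were 4 and 5. NLRC5, an activator of MHC class I genes that also damps interferon signalling, rose in WT (1.13 ± 0.08 in 3D and 1.02 ± 0.08 in 2D) and dSAP (0.91 ± 0.08 in 3D and 0.70 ± 0.08 in 2D) and fell in dSRF (-1.002 ± 0.08 in 3D, -1.07 without 3D dSRF 1 and -0.92 ± 0.08 in 2D). SOCS1, an inhibitor of JAK kinases, fell in WT (-0.74 ± 0.27 in 3D and -1.29 ± 0.32 in 2D), in dSAP (-1.26 ± 0.27 in 3D and -1.32 ± 0.32 in 2D) and in 3D dSRF (-1.63 ± 0.28, -1.51 without 3D dSRF 1). ISG20, which this list holds although it is an antiviral exonuclease, rose in dSRF (1.89 ± 0.27 in 3D, 2.20 without 3D dSRF 1 and 1.67 ± 0.27 in 2D).

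Of 34 other interferon-induced genes tested, 6 rose and 10 fell in 3D WT, 4 and 9 in 3D dSAP, and 10 and 15 in 3D dSRF, and in 2D 5 and 14 in WT, 5 and 10 in dSAP and 14 and 9 in dSRF. The shares called were 47.1% in 3D WT, 38.2% in 3D dSAP, 73.5% in 3D dSRF, 55.9% in 2D WT, 44.1% in 2D dSAP and 67.6% in 2D dSRF, against 35%, 29.6%, 66.4%, 39.3%, 32.9% and 66% of all genes. In 3D dSRF without 3D dSRF 1 they were 13 and 16. CXCL11, a chemokine of the CXCL10 family, rose in WT (2.12 ± 0.27 in 3D and 3.63 ± 0.35 in 2D), dSAP (2.43 ± 0.27 in 3D and 3.66 ± 0.35 in 2D) and 2D dSRF (1.93 ± 0.38), and fell in 3D dSRF (-1.54 ± 0.30, -2.21 without 3D dSRF 1). TNFSF10, the death ligand TRAIL, fell in 3D dSRF (-2.40 ± 0.11, -2.45 without 3D dSRF 1), 2D dSRF (-2.69 ± 0.11), 2D WT (-1.22 ± 0.10) and 2D dSAP (-1.15 ± 0.10). Its counts over the group, not scaled for depth, were also lower in 3D WT (2762) and 3D dSAP (2447) than in 3D control (3515). WARS1, a tRNA synthetase induced by interferon gamma, rose in 3D dSRF (1.03 ± 0.05, 0.98 without 3D dSRF 1), 2D dSRF (1.398 ± 0.05) and 2D WT (0.78 ± 0.05).

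The NF-kB feedback genes are targets of a second pathway that the sensors also engage. Of 11 tested, 0 rose and 4 fell in 3D WT, 0 and 5 in 3D dSAP, and 5 and 4 in 3D dSRF, and in 2D 1 and 6 in WT, 1 and 6 in dSAP and 5 and 3 in dSRF. The shares called were 36.4% in 3D WT, 45.5% in 3D dSAP, 81.8% in 3D dSRF, 63.6% in 2D WT, 63.6% in 2D dSAP and 72.7% in 2D dSRF, against 35%, 29.6%, 66.4%, 39.3%, 32.9% and 66% of all genes. In 3D dSRF without 3D dSRF 1 they were 4 and 6. NFKBIA, the inhibitor that NF-kB induces against itself, fell in WT (-0.58 ± 0.11 in 3D and -0.76 ± 0.12 in 2D) and dSAP (-0.61 ± 0.11 and -0.59 ± 0.11), and rose in dSRF (0.47 ± 0.11 in 3D, 0.67 without 3D dSRF 1 and 1.22 ± 0.11 in 2D). RELB, an NF-kB subunit, rose in dSRF (0.93 ± 0.07 in 3D, 0.85 without 3D dSRF 1 and 1.38 ± 0.07 in 2D), and CXCL1, a neutrophil chemokine, fell in WT (-1.69 ± 0.30 in 3D and -2.60 ± 0.34 in 2D) and dSAP (-2.17 ± 0.30 in 3D and -2.91 ± 0.34 in 2D). Without 3D dSRF 1, the largest changes of this list in 3D dSRF against control were falls. They were CXCL8 (-3.37), BIRC3 (-2.47), TNFAIP3 (-1.87) and CXCL1 (-1.76) on the log2 scale.

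**Figure D5:**
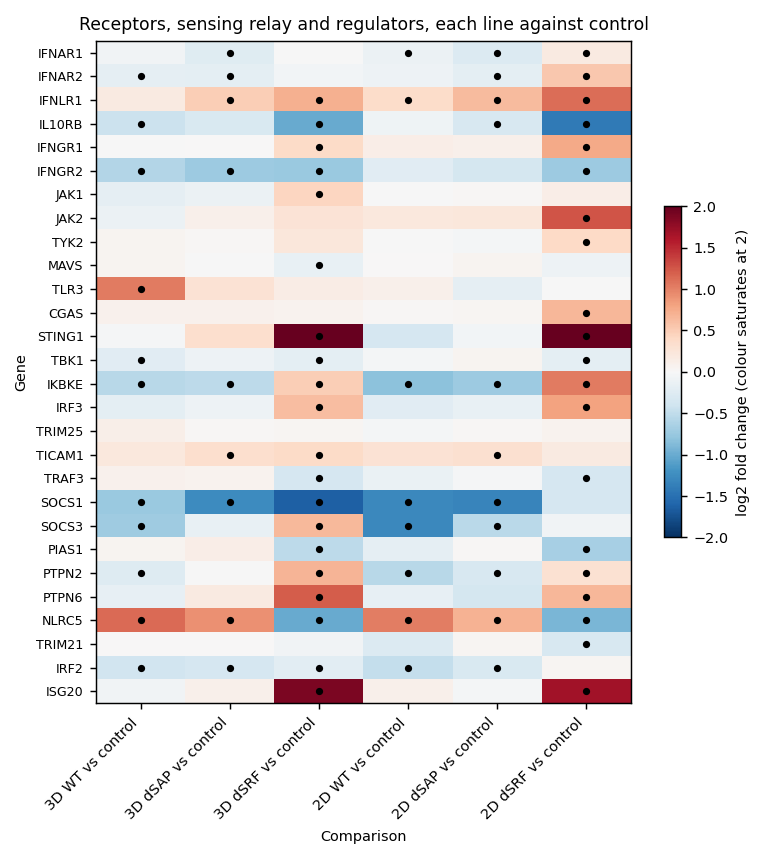
Log2 fold change of tested receptors, sensing and relay genes and negative regulators (rows) in each line against control, in 3D and 2D (columns), with dots at adjusted p under 0.05. STING1 and ISG20 are dark red in dSRF, and NLRC5 is red in WT and dSAP and blue in dSRF.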

How the data were processed

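RNA was sequenced from 24 libraries after depletion of ribosomal RNA with a stranded kit for total RNA, per the labels' protocols, while their molecule field names polyA RNA. The authors deposited an estimated count and a TPM value per gene and library. Salmon 11.3, hg38 and FastQC are named in the submitters' processing notes, which give no roles, and the use of strand in counting is not stated. Identifiers were paired with symbols and positions from GENCODE 29 (GRCh38), which named 34436 of 37247 genes.

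The estimated counts were rounded to whole numbers, filtered with filterByExpr and scaled by TMM (factors 0.89 to 1.085). A single edgeR 4.0.16 quasi-likelihood fit in R 4.3.3 held all 8 groups (residual degrees of freedom 16, biological coefficient of variation 13.07%), and 17 comparisons were drawn from it: each line against control in each culture, dSAP and dSRF against WT, 3D against 2D within a line, and the difference between cultures in the effect of a line. P-values were adjusted by Benjamini-Hochberg over 14986 genes with a threshold of 0.05. Values in CPM use TMM library sizes, and ± is the standard error of the fit. On simulated counts the fit recovered 78 of 100 genes changed by 2-fold and 90 of 100 changed by 4-fold for 2D WT against control, with 9 false among 177 calls over 14594 genes, and 72, 91 and 6 of 169 for 3D dSRF against control over 14597. In the simulation only those genes changed, in a single group, and every other gene had the same mean in all groups. It held no library that stands apart, and far more genes differ in the real comparisons, so these rates need not carry over.

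The genes and lists were chosen with earlier results of these data known. Any of the 42 genes could be named by its role, and of each other list up to 4 genes per comparison, those called with the lowest p-values, with values in some of the other comparisons. Of the NF-kB feedback list, the 4 largest changes in 3D dSRF without 3D dSRF 1 were added. Promoter stretches were limited to genes with an ISRE core and a call in at least 3 of the 6 comparisons with control, to which the CArG boxes were added. Same-numbered libraries of different groups did not deviate together: over 84 pairs the correlation was -0.131 to 0.122 (median -0.0119), with 2 above 0.1. No pairing by number was detected, which does not show that same-numbered libraries were handled apart. The alternatives tried were DESeq2 1.42.0, RLE size factors, leaving out the filter, limma 3.58.1 on log2 of TPM with 1 or 0.1 added, the libraries compared alone, a replicate block, and each library left out. Some genes are not reported here.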

Additional observations from a re-analysis of the deposited data

Results flagged for a closer look

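The interaction test found a line's effect against control to differ between 3D and 2D at these genes, given as the log2 fold change in 3D minus that in 2D. For WT it was more positive in 3D at GBP4 (3.23), IFIT2 (1.79), IFIT3 (1.39), DDX60 (1.12), IFIT1 (1.11), OASL (0.94), HERC6 (0.75), IRF1 (0.65) and HERC5 (0.28), and more negative at IFI35 (-0.72) and UBE2L6 (-0.56). On log2(TPM + 1) the WT call was lost at GBP4 (adjusted p = 0.318), IRF1 (0.16) and OASL (0.102). The HERC5 call was lost with no filter (adjusted p = 0.112), and leaving out 1 library ended the WT call of HERC5 for 10 libraries (adjusted p 0.0504 to 0.122), of IRF1 for 11 (0.0636 to 0.11) and of OASL for 3 (0.0535 to 0.0684). For dSAP it was more positive in 3D at GBP4 (1.86), OASL (1.42), IFIT2 (1.37), DDX60 (1.01), IFIT1 (0.85), IFIT3 (0.80), IRF9 (0.64) and IFI27 (0.43). There GBP4 (adjusted p = 0.553) and IRF9 (0.127) were lost on log2(TPM + 1), and leaving out 1 library ended the dSAP call of IFIT1 for 3 libraries (adjusted p 0.0556 to 0.0629), of IFI27 for 1 (0.0578) and of IRF9 for 1 (0.0543). For dSRF it was more positive at IFITM1 (1.38), IFITM2 (0.61), IFI27 (0.59), IFIT5 (0.55), BST2 (0.54), IFITM3 (0.53) and SAMD9 (0.49), and more negative at CXCL10 (-5.11), IFI44L (-2.62), OASL (-1.91), GBP4 (-1.49), IFI44 (-1.07), OAS3 (-1.01), IFIT3 (-0.99), IFIT2 (-0.86), IFIT1 (-0.73), IFI35 (-0.71), GBP2 (-0.70), HERC5 (-0.64), PARP14 (-0.55) and ISG15 (-0.47). The dSRF calls lost on log2(TPM + 1) were GBP4 (adjusted p = 0.821), IFITM1 (0.201) and PARP14 (0.0592), and the PARP14 call was also lost without any 1 of 3 libraries (0.0576 to 0.0633). Without the library 3D dSRF 1, which stands apart from its group, each of these 21 dSRF genes kept its direction and its call, with values of 1.36 for IFITM1, 0.59 for IFITM2, 0.58 for IFI27, 0.32 for IFIT5, 0.54 for BST2, 0.49 for IFITM3, 0.59 for SAMD9, -5.61 for CXCL10, -2.36 for IFI44L, -2.17 for OASL, -1.79 for GBP4, -1.17 for IFI44, -1.36 for OAS3, -1.22 for IFIT3, -1.17 for IFIT2, -0.98 for IFIT1, -0.66 for IFI35, -0.87 for GBP2, -0.625 for HERC5, -0.33 for PARP14 and -0.61 for ISG15. The CXCL10 value rests on 14 counts in 3D dSRF, of which 8 in 3D dSRF 1, and 27 in 2D dSRF, against 75 in 3D control and 5 in 2D control. WT, dSAP and dSRF share the control libraries, so their values are not independent.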

How the results depend on the processing

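Of 680 results on single genes, 374 were called. RLE size factors ended 3 of these calls and added 2, no filter ended 24 and added 0, DESeq2 ended 4 and added 10, log2(TPM + 1) ended 63 and added 18, and fits of the compared libraries alone ended 34 and added 68. None of these settings turned a called direction. Counts of members called moved by over 1.5 times in 2D dSAP against control on log2(TPM + 1) (13, main 22), in dSAP against WT in fits of those libraries alone (13 in 2D, main 5, and 22 in 3D, main 12), in dSRF 3D against 2D with no filter (4, main 10) or those libraries alone (0, with 4 at an unadjusted p under 0.05 and 12 called by DESeq2), and in the interactions with the compared libraries alone (17 for WT, main 11, and 13 for dSAP, main 8) or log2(TPM + 0.1) (5 for dSAP). Leaving out each library in turn gave, against control, 19 to 28 in 2D WT, 17 to 30 in 2D dSAP, 28 to 31 in 2D dSRF, 20 to 31 in 3D WT, 21 to 28 in 3D dSAP and 33 to 36 in 3D dSRF. Against WT it gave 4 to 11 in 2D dSAP, 30 to 33 in 2D dSRF, 9 to 18 in 3D dSAP and 33 to 38 in 3D dSRF. For 3D against 2D it gave 26 to 33 in WT, 28 to 35 in dSAP, 3 to 23 in dSRF and 20 to 34 in control, and for the interactions 8 to 18 for WT, 5 to 15 for dSAP and 20 to 23 for dSRF. IFIT5 in 3D dSRF against WT (0.00, adjusted p = 0.978) ran from -0.22 without 3D dSRF 1 (adjusted p = 0.000882) to 0.11 without 3D dSRF 2. No pairing of the libraries by replicate number was detected. With the replicate block, 7 calls on single genes were lost and 3 added, and the dSRF 3D against 2D count was 8 (main 10). The TPM scale moved the median of all genes by over 0.1 in some comparisons, for example to 0.21 in 2D dSRF against WT with 0.1 added, against 0.03 on counts. Causes were not tested. Low counts limit CXCL10, GBP4, IFI44L, RSAD2 and CMPK2.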
